A study of Mus musculus with 36 samples.

Results

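The Serpina3 genes of the mouse were described across sensory ganglia (dorsal root ganglion, DRG) and the dorsal part of the spinal cord, in knockout (KO) and wild-type (WT) mice, after spared nerve injury (SNI) or naive. The 6 genes Serpina3f, Serpina3g, Serpina3h, Serpina3i, Serpina3m and Serpina3n were taken by name, through their Ensembl identifiers in GENCODE M21, from 14 Serpina3 genes and pseudogenes among 55487 genes in the table. They were selected on their levels and responses in these same libraries, with no stated threshold. Their fold changes and calls below are therefore a description of the chosen genes, and support nothing about the choice.

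Serpins are protease inhibitors that offer a reactive loop to their target, are cleaved by it, and trap the protease in an inactive complex. The mouse cluster is an expansion of the region that in humans holds SERPINA3, the gene of alpha-1-antichymotrypsin, an acute-phase inhibitor of chymotrypsin-like proteases. In nervous tissue, Serpina3n is known as a marker of reactive astrocytes, and its secreted product as an inhibitor of leukocyte proteases, among them leukocyte elastase and granzyme B.

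The series held 36 RNA-seq libraries, 18 per tissue. In each tissue there were 4 KO SNI, 5 KO naive, 4 WT SNI and 5 WT naive libraries. All mice were female per the title of the series, the KO groups shared a knockout genotype, and SNI is a lesion of sciatic nerve branches that leaves a branch intact. The sources used here gave neither strain, age, time after SNI nor the form of the knockout. The genotype field was followed for 2 naive DRG libraries, A2 and A4, that their titles called wild type.

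Depth was 21.34 M to 27.27 M estimated reads per library. The neuronal markers, summed, reached at least 5205 CPM (counts scaled by library size) in every DRG library, and the axon injury markers Atf3, Sprr1a and Gal were called higher after SNI in WT DRG. Whether libraries came from different animals is not stated in the labels, so the spread and the p-values are those between libraries. In whole tissue, fewer cells of a type and less RNA per cell cannot be told apart.

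All 6 genes lie on the plus strand of chromosome 12 (GRCm38), within 199.8 kb. Serpina3f is at 104214544 to 104221129, Serpina3g at 104236245 to 104241939, Serpina3h at 104247905 to 104253669 and Serpina3i at 104263122 to 104269372. Serpina3m follows at 104338486 to 104394257 and Serpina3n at 104406729 to 104414329. Serpina3h is annotated as a transcribed unprocessed pseudogene, and the others as protein coding. The gap between Serpina3g and Serpina3h is 5.965 kb and that between Serpina3h and Serpina3i 9.452 kb.

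Near-identical stretches limit how reads can be assigned within the cluster. Of all 50-base stretches in the transcripts of Serpina3h, 21.9% occurred in another gene, 15.8% in Serpina3i and 14.1% in Serpina3g. The shared part was 19.1% for Serpina3m (16.0% with Serpina3k, with which it also shares 60 exon bases on the same strand), 15.9% for Serpina3i, 15.5% for Serpina3g, 10.6% for Serpina3f and 6.9% for Serpina3n. At 100 bases it was 0.2% for Serpina3n and at most 6.1%, in Serpina3m. The sources used here gave no read length, so the split of reads between Serpina3h and its neighbours is less certain than the level of Serpina3n.

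The bases before the start site are shown for 4 members because the genes moved in opposite directions after injury in DRG: Serpina3f and Serpina3g were lower, Serpina3i and Serpina3n higher. Each is the 250 bases upstream of the RefSeq start, plus strand of chromosome 12, build GRCm38.p6, written 5′ to 3′. Serpina3f has a second RefSeq start further downstream, and the bases shown are those before its first. Capitals mark matches to the STAT element TTCNNNGAA, the STAT6-type element, which has a wider gap, or the kappa B element. The RefSeq table held no promoter of Serpina3h or Serpina3m.
Serpina3f, chr12:104214294-104214543: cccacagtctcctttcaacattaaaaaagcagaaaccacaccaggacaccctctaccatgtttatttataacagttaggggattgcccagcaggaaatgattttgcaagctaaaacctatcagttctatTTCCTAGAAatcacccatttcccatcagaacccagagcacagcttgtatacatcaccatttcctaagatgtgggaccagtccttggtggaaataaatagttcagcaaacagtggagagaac
Serpina3g, chr12:104235897-104236146: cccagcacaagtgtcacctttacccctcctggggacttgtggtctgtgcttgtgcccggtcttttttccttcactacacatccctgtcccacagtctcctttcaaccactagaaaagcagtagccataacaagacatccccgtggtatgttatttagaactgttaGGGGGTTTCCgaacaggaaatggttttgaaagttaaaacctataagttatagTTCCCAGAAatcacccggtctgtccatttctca
Serpina3i, chr12:104262872-104263121: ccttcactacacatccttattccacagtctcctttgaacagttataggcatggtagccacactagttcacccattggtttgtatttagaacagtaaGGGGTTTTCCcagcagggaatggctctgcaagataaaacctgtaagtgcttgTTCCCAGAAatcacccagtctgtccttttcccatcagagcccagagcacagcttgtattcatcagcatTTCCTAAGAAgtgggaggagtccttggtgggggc
Serpina3n, chr12:104406458-104406707: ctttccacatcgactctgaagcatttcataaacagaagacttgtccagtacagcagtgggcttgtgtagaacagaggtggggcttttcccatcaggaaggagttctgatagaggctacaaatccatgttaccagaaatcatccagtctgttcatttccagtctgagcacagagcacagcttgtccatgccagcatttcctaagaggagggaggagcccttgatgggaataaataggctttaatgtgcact

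Motifs were searched on both strands, overlaps allowed, in 250 bases before to 50 after the start, and the background is the share of 32851 RefSeq promoters of that length with a match. A STAT element stood at 121 bases before the first start in Serpina3f, 33 before in Serpina3g and 102 before in Serpina3i, and none in Serpina3n (8.3% of all promoters). From the second start of Serpina3f the same match lies 210 bases before. A kappa B element stood at 85 bases before the start in Serpina3g and 154 before in Serpina3i (4.51% of all promoters). The STAT6-type element occurred in Serpina3i alone among the 4 (6.95% of all promoters). The C/EBP element TTNNGNAA occurred in all 4 (40.68% of all promoters), the glucocorticoid receptor element core TGTTCT in Serpina3f, Serpina3i and Serpina3n (18.97%), and the AP-1 element TGANTCA in none (7.81%). A match is a description of letters. Serpina3g and Serpina3i shared a STAT and a kappa B match, and their RNA moved in opposite directions in injured DRG.

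Serpina3n had the highest level per length of the 6 genes in every group (after ± stands the SD between libraries). In DRG it averaged 197 ± 14.2 CPM per kb of exon in KO SNI, 119.8 ± 6.09 in KO naive, 155 ± 13.6 in WT SNI and 93.3 ± 5.05 in WT naive libraries. Next in naive DRG were Serpina3g (33.7 ± 3.47 CPM per kb in KO naive, 32.6 ± 2.91 in WT naive) and Serpina3h (20.7 ± 2.001 in KO naive, 15.0 ± 1.43 in WT naive). After SNI this order turned, with Serpina3h at 33.2 ± 1.25 CPM per kb above Serpina3g at 23.6 ± 1.51 in KO libraries. In WT SNI libraries Serpina3h and Serpina3g, at 23.5 ± 3.22 and 22.8 ± 2.42 CPM per kb, overlapped. Serpina3i came below these 3 in all 4 DRG groups. Serpina3f and Serpina3m were lowest, and their ranges overlapped in KO SNI DRG.

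In cord, Serpina3n stood alone. It averaged 75.1 ± 8.27 CPM per kb in KO SNI, 38.3 ± 2.10 in KO naive, 61.7 ± 6.10 in WT SNI and 37.4 ± 1.82 in WT naive libraries. Serpina3h was second at 4.68 ± 1.43 CPM per kb in KO SNI, 0.840 ± 0.141 in KO naive, 2.64 ± 1.08 in WT SNI and 0.545 ± 0.104 in WT naive cord. In WT naive cord Serpina3h lay wholly above Serpina3g, Serpina3i and Serpina3f, and Serpina3g wholly above Serpina3f, while Serpina3m, at 0.0773 to 0.658 CPM per kb, overlapped all of these. Serpina3n held 93.2% ± 0.895 of the summed CPM of the 6 genes in KO SNI, 96.5% ± 0.851 in KO naive, 95.2% ± 1.25 in WT SNI and 97.2% ± 0.663 in WT naive cord. In DRG it held 75.8% ± 1.31 in KO SNI, 66.6% ± 1.56 in KO naive, 75.3% ± 1.53 in WT SNI and 64.0% ± 2.20 in WT naive libraries.

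**Figure D1:**
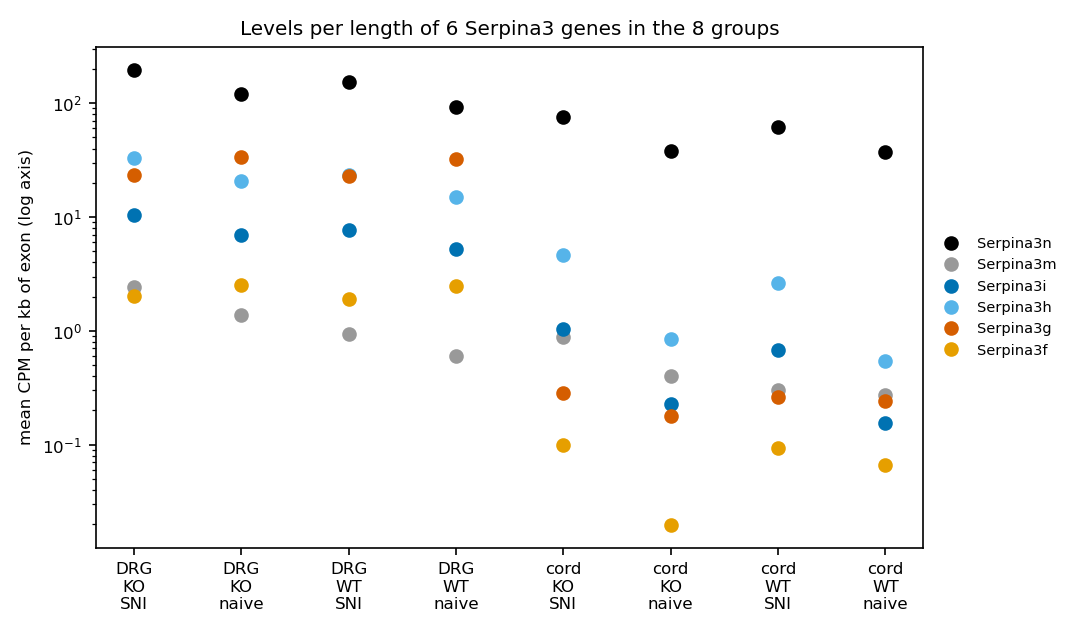
Mean level of each of the 6 genes in the 8 groups, in CPM per kb of exon on a log axis, with DRG groups at left and cord groups at right. Serpina3n lies highest in every group, at 93.3 in WT naive DRG and 37.4 in WT naive cord.

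In naive WT mice all 6 genes were higher in DRG than in cord. Calls here and below are edgeR quasi-likelihood tests with an adjusted p under 0.05 (Benjamini-Hochberg, all genes of the fit), and 76.7% of all genes were called between the tissues, so a call by itself says little here. The log2 fold change, DRG against cord, was 6.97 ± 0.15 for Serpina3g (± is the standard error for log2 values), 5.13 ± 0.26 for Serpina3f, 4.95 ± 0.20 for Serpina3i and 4.68 ± 0.20 for Serpina3h. It was 1.23 ± 0.07 for Serpina3n and 1.09 ± 0.37 for Serpina3m. Serpina3g, known as an intracellular inhibitor of lysosomal cysteine cathepsins, thus held the widest tissue difference of the 6, at 125-fold. Serpina3m was the member whose WT naive DRG and cord libraries overlapped, and 63.5% of all genes did not overlap between these groups.

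Injury in DRG split the family. In WT DRG, Serpina3n, Serpina3h and Serpina3i were called higher and Serpina3g and Serpina3f lower after SNI, while Serpina3m was not called (5 of 6 members called, against 24.9% of all genes). In KO DRG, Serpina3n, Serpina3h, Serpina3i and Serpina3m were called higher and Serpina3g lower, while Serpina3f was not called. That is 4 higher and 1 lower of 6, against 28.5% of all genes. These calls do not compare KO with WT, which the interaction below does.

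Serpina3n had 444, 375, 395 and 411 CPM in KO SNI DRG, against 257, 229.8, 239, 260.2 and 250.3 CPM in KO naive DRG. It had 336, 289, 349 and 303 CPM in WT SNI DRG, against 189, 202, 203, 192 and 177 CPM in WT naive DRG. All SNI libraries lay above all naive ones within each genotype. Groups of SNI and naive libraries that do not overlap were common in DRG, at 32.4% of all genes in KO and 18.03% in WT. The log2 fold change was 0.72 ± 0.07 in KO and 0.73 ± 0.07 in WT, that is 1.64-fold and 1.66-fold.

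Serpina3h, the transcribed pseudogene, had 47.1, 45.4, 49.4 and 48.7 CPM in KO SNI DRG, against 31.8, 27.1, 26.1, 30.8 and 32.4 CPM in KO naive DRG. It had 35.6, 27.3, 38.1 and 34.0 CPM in WT SNI DRG, against 18.2, 21.6, 23.8, 21.9 and 22.0 CPM in WT naive DRG. The groups did not overlap, and the log2 fold change was 0.68 ± 0.09 in KO and 0.65 ± 0.09 in WT. Its neighbour Serpina3i had 24.7, 22.1, 22.2 and 24.1 CPM in KO SNI DRG, against 15.7, 14.6, 14.5, 15.6 and 16.8 CPM in KO naive DRG. In WT, Serpina3i had 16.3, 15.2, 18.5 and 17.96 CPM after SNI, against 10.6, 11.9, 11.9, 11.4 and 11.9 CPM in naive DRG. Again every SNI library was the higher one, by 0.60 ± 0.07 on the log2 scale in KO and 0.56 ± 0.07 in WT.

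Serpina3g had 50.1, 48.6, 53.8 and 46.3 CPM in KO SNI DRG, against 71.1, 66.2, 67.1, 67.0 and 83.6 CPM in KO naive DRG. It had 52.2, 42.6, 44.9 and 52.6 CPM in WT SNI DRG, against 63.0, 75.0, 68.3, 62.0 and 74.4 CPM in WT naive DRG. Here every SNI library was the lower one, with a log2 fold change of -0.51 ± 0.09 in KO and -0.51 ± 0.09 in WT. Serpina3f, at 3.86, 5.56, 4.95 and 4.13 CPM in KO SNI DRG against 5.74, 6.85, 6.39, 4.62 and 5.36 CPM in KO naive DRG, overlapped between the groups (log2 fold change -0.33 ± 0.13, adjusted p = 0.0631). In WT it had 4.06, 4.22, 4.22 and 4.86 CPM after SNI, against 4.97, 6.22, 5.37, 5.51 and 6.28 CPM in naive DRG. Those groups stood apart by a narrow margin, at -0.39 ± 0.13 on the log2 scale, and the call was lost in 6 of 18 fits that left out a library (A3, B3, C1, E1, E3 or F1). The WT call was also lost without the filter on low counts (adjusted p = 0.0662) and with a blood covariate (adjusted p = 0.109). In KO DRG, Serpina3f was called lower by DESeq2 (adjusted p = 0.0470) and by edgeR with the blood covariate (adjusted p = 0.0248).

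Serpina3m, the scarcest member in WT DRG, had 4.27, 4.01, 4.49 and 4.04 CPM in KO SNI DRG, against 2.87, 1.79, 3.25, 2.11 and 1.78 CPM in KO naive DRG. The groups did not overlap (log2 fold change 0.83 ± 0.23). In WT DRG it had 2.17, 0.979, 1.34 and 1.94 CPM after SNI, against 1.02, 1.56, 0.684, 0.692 and 1.24 CPM in naive libraries, which overlapped (0.62 ± 0.27, adjusted p = 0.0999). That WT value passed the threshold in 2 of 18 fits, those without A3 or without E3.

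**Figure D2:**
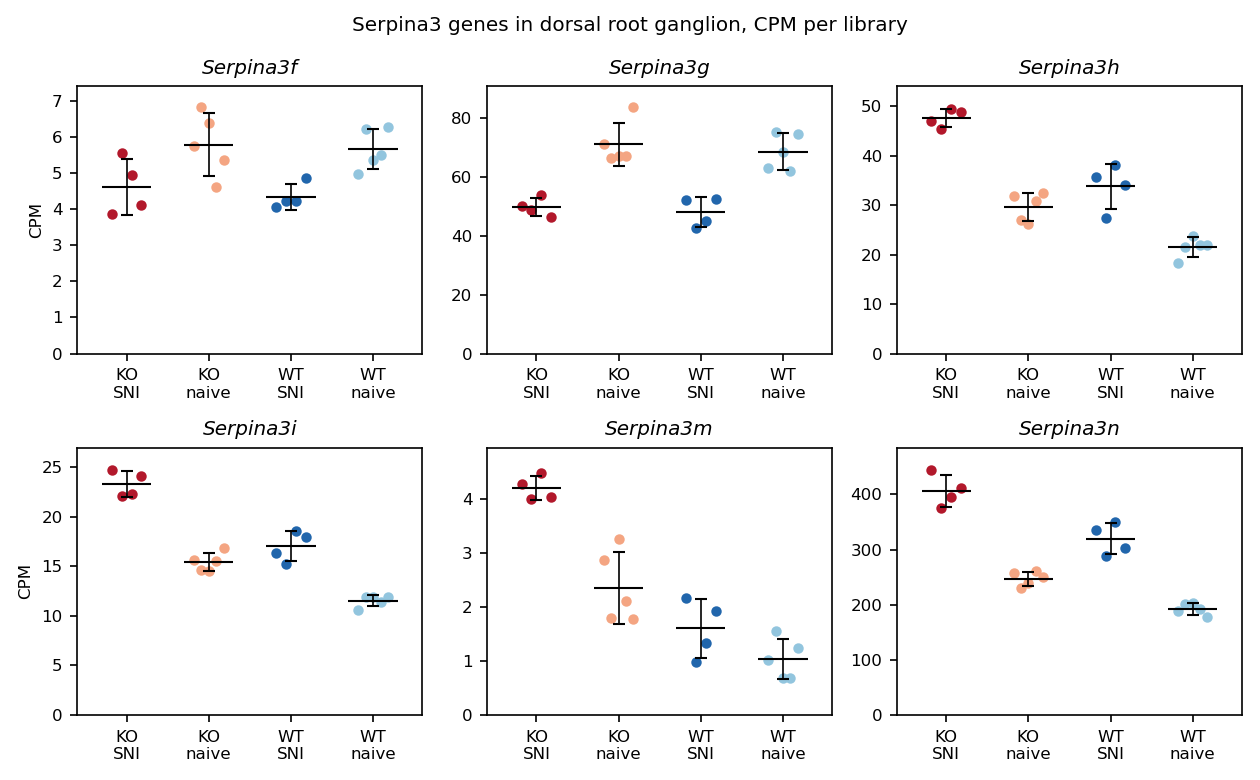
CPM of the 6 genes in every DRG library (points), with the mean and SD of each group (bars), in KO SNI, KO naive, WT SNI and WT naive. Serpina3n, Serpina3h and Serpina3i lie higher and Serpina3g lower in SNI than in naive libraries of either genotype, and Serpina3m reaches 4.203 in KO SNI on average against 1.60 in WT SNI.

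The difference between KO and WT in the injury response was tested as an interaction. By edgeR no member was called in DRG, where 0.0256% of all genes were, and none had an unadjusted p under 0.05; DESeq2 and limma called 0 members as well. The interaction was -0.01 ± 0.10 on the log2 scale for Serpina3n, 0.03 ± 0.13 for Serpina3h and 0.04 ± 0.10 for Serpina3i. For Serpina3g it was -0.002 ± 0.121, for Serpina3f 0.06 ± 0.18 and for Serpina3m 0.21 ± 0.36. These standard errors bound the first 4 more tightly than Serpina3m.

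KO DRG had higher levels of 4 of the 6 genes than WT DRG, injured or not. Serpina3n, Serpina3h, Serpina3i and Serpina3m were called higher in KO among naive libraries (4 of 6, against 28.2% of all genes) and among SNI libraries (4 of 6, against 5.1% of all genes), and in each of these 4 genes no KO library overlapped a WT library of the same injury state. Of all genes, 18.7% did not overlap between KO and WT in naive DRG and 12.3% in SNI DRG. The log2 fold change in naive DRG was 0.36 ± 0.06 for Serpina3n, 0.46 ± 0.09 for Serpina3h, 0.42 ± 0.07 for Serpina3i and 1.17 ± 0.24 for Serpina3m. In SNI DRG it was 0.35 ± 0.07 for Serpina3n, 0.50 ± 0.10 for Serpina3h, 0.45 ± 0.07 for Serpina3i and 1.38 ± 0.26 for Serpina3m. Serpina3g (0.05 ± 0.08 naive, 0.05 ± 0.09 SNI) and Serpina3f (0.03 ± 0.12 naive, 0.09 ± 0.14 SNI) were not called in either. The naive and SNI comparisons share no library, but both came from the same fit of all DRG libraries, with a shared estimate of the spread. Their p-values are therefore not independent of each other. Injured neuron markers, Atf3, Sprr1a and Gal among them, summed to 3502 to 3881 CPM in KO SNI and 2551 to 3160 CPM in WT SNI DRG. T cell markers summed to 3.295 to 4.07 CPM in KO SNI and 4.16 to 6.47 CPM in WT SNI DRG. The sums of the other cell types overlapped between these SNI groups. The part of these cells in the Serpina3 values was not tested.

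Serpina3n in naive DRG lay between 229.8 and 260.2 CPM in KO and between 177 and 203 CPM in WT. Hemoglobin and Alas2 RNA, summed as a mark of blood, moved the other way: it was 190.8 to 609.6 CPM in KO naive and 737 to 3539.99 CPM in WT naive DRG, and all 5 blood markers were called lower in KO. The neutrophil markers summed to 22.6 to 71.7 CPM in KO naive and 75.8 to 420.2 CPM in WT naive DRG, with 8 of 8 called lower. Other cell type markers differed too: 6 of 8 macrophage and 4 of 6 endothelial markers were called lower in KO naive DRG, 4 of 7 neuron markers higher, and of 8 satellite glia and astrocyte markers 5 higher and 1 lower. Neuron markers summed to 7701 to 9678 CPM in KO naive and 5205 to 7588 CPM in WT naive DRG, and the part of these cell types in the Serpina3 values was not tested. With a blood score of each library as a covariate, added after the data were seen, Serpina3n differed by 0.24 (adjusted p = 0.19) and Serpina3h by 0.39 (adjusted p = 0.129), and 532 genes were called in place of 5506. Serpina3i and Serpina3m kept their calls in that fit. The blood sums of KO and WT naive DRG did not overlap, so the covariate goes with genotype there, and a lost call cannot tell blood from genotype. Among SNI libraries the blood sums overlapped, at 376 to 882 CPM in KO and 456 to 1630.02 CPM in WT DRG. The member calls between KO and WT in SNI DRG were kept with the blood covariate. In a separate fit of only the 8 SNI DRG libraries, without that covariate, the Serpina3n call was lost (0.34, adjusted p = 0.0615).

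**Figure D3:**
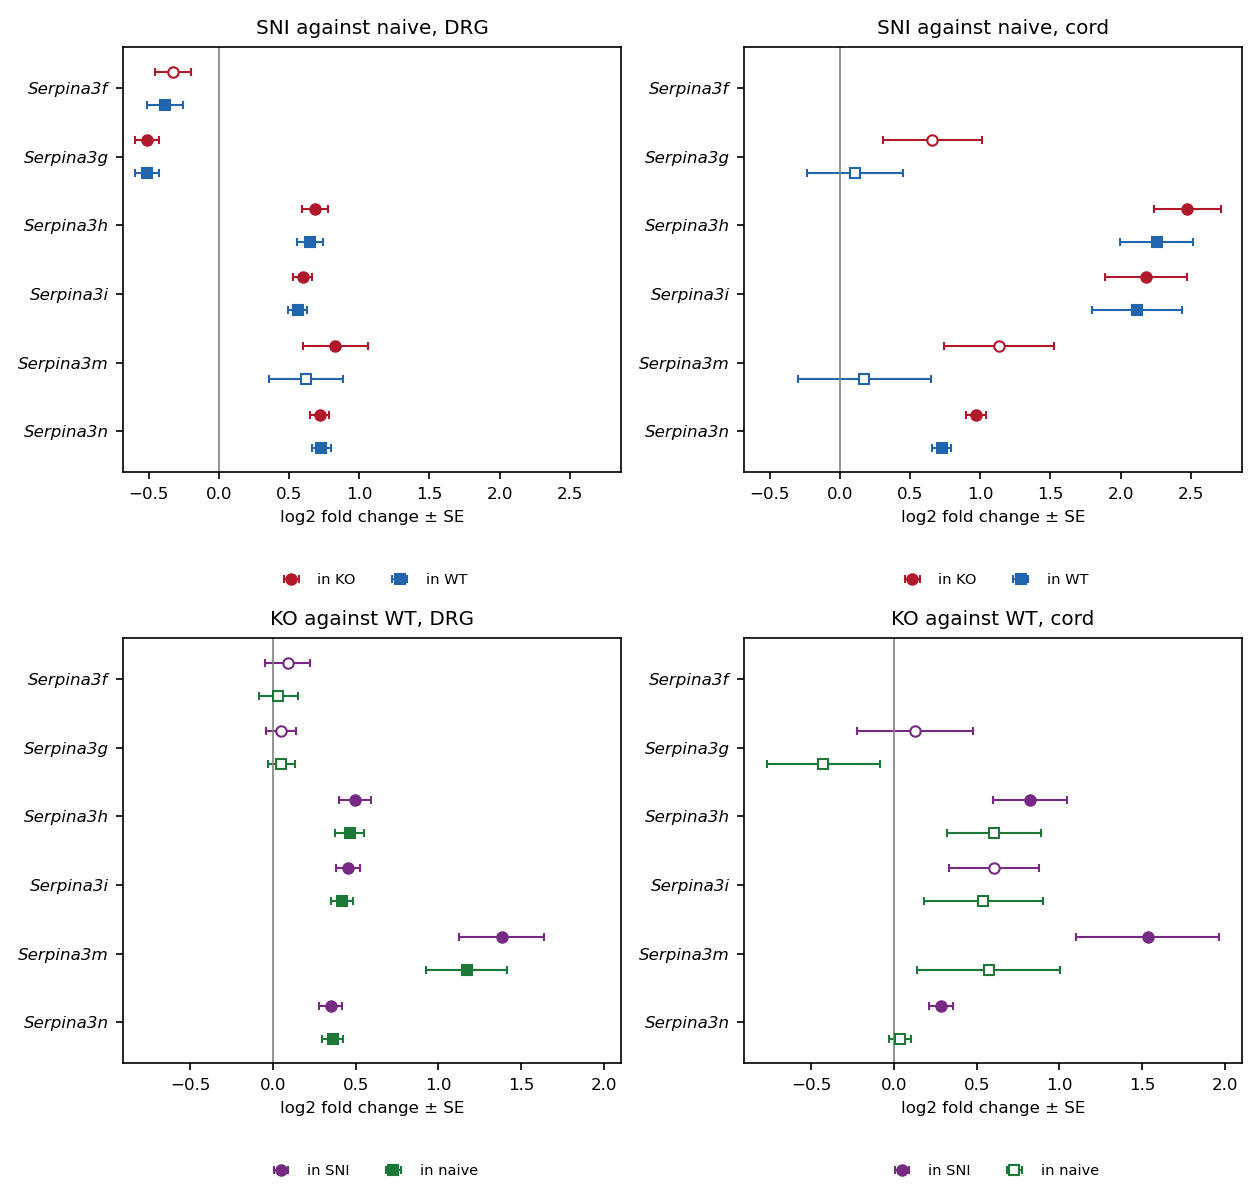
Log2 fold change ± SE of each gene for SNI against naive (top) and KO against WT (bottom), in DRG (left) and cord (right); filled symbols are called at an adjusted p under 0.05 and open ones are not. Serpina3h and Serpina3i lie near 0.6 in injured DRG and above 2 in injured cord; Serpina3f was too low in cord to be fitted there.

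In cord, injury raised the same 3 genes in WT and in KO. Serpina3n, Serpina3h and Serpina3i were called higher after SNI in WT (3 of 5 tested, against 2.88% of all genes) and in KO (3 of 5 tested, against 4.42% of all genes), and none was called lower. Serpina3f did not pass the filter on low counts in cord, where its libraries held at most 0.311 CPM.

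Serpina3n had 179.6, 142, 153 and 146 CPM in KO SNI cord, against 75.3, 74.1, 83.8, 79.6 and 82.8 CPM in KO naive cord. It had 139, 136, 111 and 124 CPM in WT SNI cord, against 77.3, 81.4, 72.9, 80.2 and 73.9 CPM in WT naive cord. The SNI and naive libraries did not overlap in either genotype, which held for 7.71% of all genes in KO cord and 4.87% in WT cord. The log2 fold change was 0.97 ± 0.07 in KO and 0.72 ± 0.07 in WT.

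Serpina3h had 9.55, 6.78, 4.91 and 5.59 CPM in KO SNI cord, against 1.36, 1.02, 1.46, 1.18 and 1.00 CPM in KO naive cord. It had 5.91, 3.91, 2.37 and 2.97 CPM in WT SNI cord, against 0.996, 0.828, 0.588, 0.728 and 0.770 CPM in WT naive cord. The groups did not overlap. Its log2 fold change was 2.48 ± 0.24 in KO and 2.26 ± 0.26 in WT, that is 5.56-fold and 4.79-fold. Serpina3i had 3.02, 1.85, 2.34 and 2.04 CPM in KO SNI cord against 0.693, 0.564, 0.364, 0.679 and 0.235 CPM in KO naive cord, and 2.29, 1.73, 0.917 and 1.15 CPM in WT SNI cord against 0.377, 0.492, 0.261, 0.404 and 0.187 CPM in WT naive cord. It too showed no overlap, at 2.18 ± 0.29 on the log2 scale in KO and 2.12 ± 0.32 in WT.

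Serpina3g and Serpina3m were scarce in cord and were not called with injury. Serpina3g averaged 0.599 ± 0.166 CPM in KO SNI and 0.375 ± 0.203 CPM in KO naive cord, and 0.552 ± 0.146 CPM in WT SNI and 0.510 ± 0.153 CPM in WT naive cord. Serpina3m averaged 1.51 ± 0.162 CPM in KO SNI and 0.688 ± 0.297 CPM in KO naive cord (1.13 ± 0.39 on the log2 scale, adjusted p = 0.132), with no overlap, and passed the threshold when the KO cords alone were fitted (adjusted p = 0.0112). In WT cord it averaged 0.515 ± 0.269 CPM after SNI and 0.466 ± 0.391 CPM in naive libraries.

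**Figure D4:**
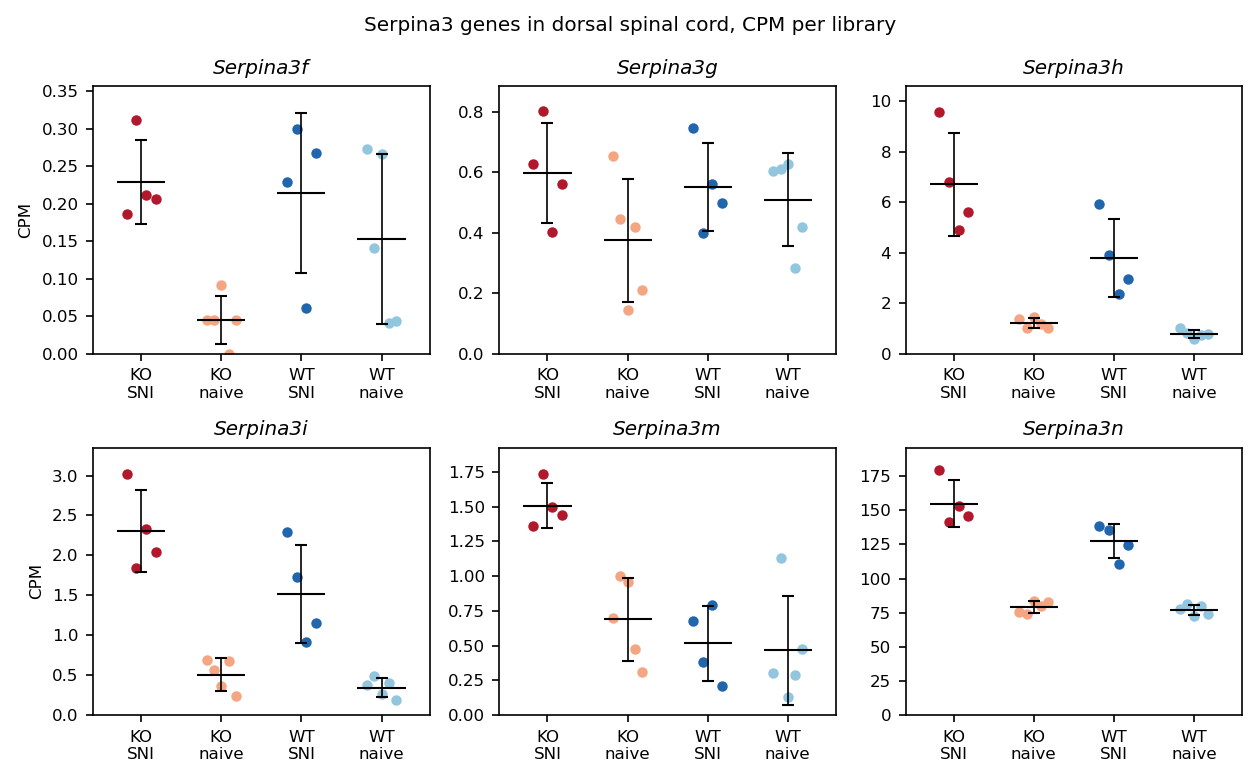
CPM of the 6 genes in every cord library (points), with the mean and SD of each group (bars), in KO SNI, KO naive, WT SNI and WT naive. Serpina3n, Serpina3h and Serpina3i lie higher in SNI than in naive libraries of either genotype, while Serpina3f stays at or below 0.311 in all of them.

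Between genotypes in cord the naive libraries did not differ by a call in any of 5 tested members (0 called, against 19.7% of all genes; at an unadjusted p under 0.05, Serpina3h was the member; DESeq2 and limma called 0). Serpina3n was 0.04 ± 0.07 higher in KO on the log2 scale, with overlapping libraries. Serpina3h differed by 0.61 ± 0.28 (adjusted p = 0.142) and passed the threshold when the naive groups alone were fitted (adjusted p = 0.0468). Every KO naive library of Serpina3h lay above every WT one, and 11.8% of all genes did not overlap between these groups. Among SNI libraries Serpina3n (0.28 ± 0.07), Serpina3h (0.82 ± 0.23) and Serpina3m (1.53 ± 0.43) were called higher in KO (3 of 5 tested, against 6.26% of all genes). The KO and WT libraries did not overlap for Serpina3n and Serpina3m, as for 12.99% of all genes, and overlapped for Serpina3h. Schwann cell markers summed to 357 to 554 CPM in KO SNI and 562 to 1055 CPM in WT SNI cord. The sums of the other cell types overlapped between these groups. The part of Schwann cells in the Serpina3 values was not tested. The Serpina3h call was lost with a blood covariate (adjusted p = 0.0893) and the Serpina3m call with limma (adjusted p = 0.0519). All 3 calls were near the threshold. None remained without the filter on low counts, the Serpina3m call alone remained when only the SNI libraries were fitted, and the number ran from 0 to 3 as single libraries were left out, with the Serpina3h call lost without E6, E7, E8, F5 or F7, the Serpina3m call without E5, E6, E7, E8, F6, F7 or F8, and the Serpina3n call without E6, F5 or F7. The interaction of genotype and injury was called for no member and for 0% of all genes in cord, 1150 of which had an unadjusted p under 0.05. DESeq2 called 0 members there as well. For Serpina3n that interaction was 0.25 ± 0.10 (unadjusted p = 0.022, adjusted p = 0.761).

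In WT mice the injury response of Serpina3h was smaller in DRG than in cord by 1.62 ± 0.28 on the log2 scale (adjusted p = 9.66e-05) and that of Serpina3i by 1.56 ± 0.30 (adjusted p = 0.000247), in a joint fit of all 36 libraries (2 of 6 members called, against 12.5% of all genes). The WT response of Serpina3n differed between DRG and cord by -0.01 ± 0.10 (adjusted p = 0.988). In KO mice 5 of 6 members were called with a lower log2 response in DRG (against 17.2% of all genes). For Serpina3g and Serpina3f the fitted response was below 0 in DRG, and their mean CPM in cord was higher in SNI than in naive libraries, a difference not called for Serpina3g and not tested within cord for Serpina3f. The difference was -1.83 ± 0.26 for Serpina3h, -1.62 ± 0.27 for Serpina3i, -1.21 ± 0.33 for Serpina3g, -2.61 ± 0.56 for Serpina3f and -0.29 ± 0.10 for Serpina3n. The Serpina3f value rests on 0 to 2 estimated counts in each KO naive cord library, and its fold depends on how low counts are treated. The Serpina3n call was lost in 27 of 36 fits that left out a library, with values from -0.32 to -0.21, and the Serpina3g call without E8.

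**Figure D5:**
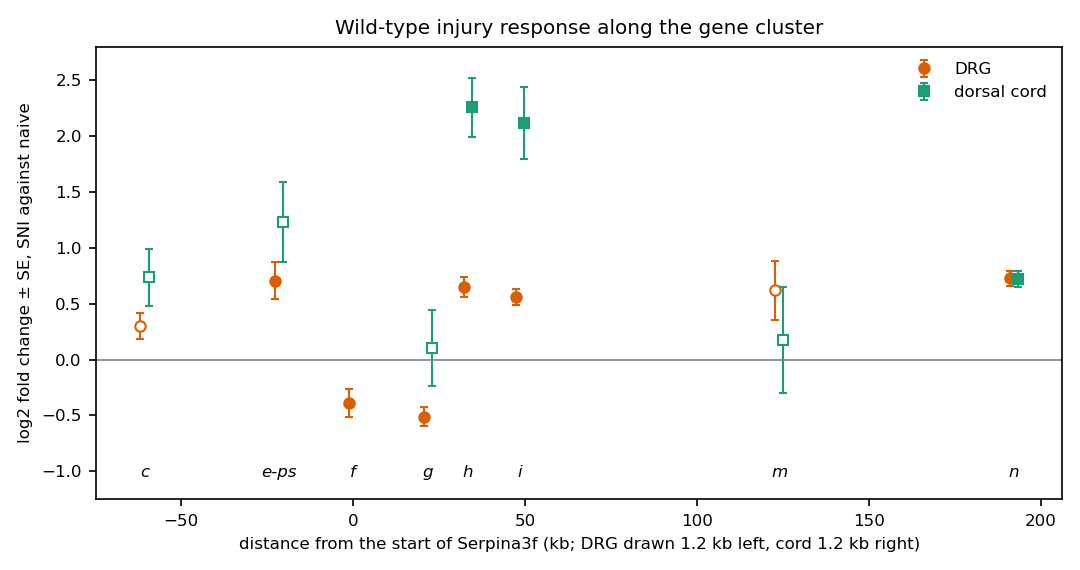
Log2 fold change ± SE of SNI against naive in WT DRG (circles) and WT cord (squares) by distance of each gene's start from that of Serpina3f, in kb; filled symbols are called. The adjacent Serpina3g and Serpina3h lie on opposite sides of 0 in DRG, and Serpina3n has nearly equal values, 0.73 and 0.72, in DRG and cord.

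By position in WT DRG, Serpina3f and Serpina3g fell, at the one end of the chosen genes only. The genes that rose, Serpina3h, Serpina3i and Serpina3n, lay beyond them. On the other side of Serpina3f start Serpina3e-ps, at -21.6 kb from its start, and Serpina3c, at -60.7 kb, which were not among the chosen genes. In WT DRG Serpina3e-ps was called higher after SNI (log2 fold change 0.71 ± 0.17), and Serpina3c was not called (0.30 ± 0.12). The genes that fell thus had genes with positive values on both sides. Serpina3m, between Serpina3i and Serpina3n, had a log2 fold change of 0.62 and was not called. The log2 CPM values of Serpina3h and Serpina3i, taken over 18 DRG libraries, had a Pearson r of 0.98, and their deviations from the group means 0.79. For Serpina3n the same values were 0.96 and 0.63 with Serpina3h and 0.96 and 0.59 with Serpina3i. Serpina3n and Serpina3g had -0.75 over libraries and 0.11 for deviations. These correlations describe libraries that share groups and depth, and for Serpina3h and Serpina3i also sequence.

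Among the other Serpina3 genes, Serpina3c and Serpina3e-ps were measurable in both tissues. Serpina3e-ps, an unprocessed pseudogene, averaged 5.12 ± 0.542 CPM in KO SNI and 2.62 ± 0.430 CPM in KO naive DRG, and 3.25 ± 0.784 CPM in WT SNI and 1.99 ± 0.232 CPM in WT naive DRG. In cord it averaged 0.975 ± 0.0704 CPM in KO SNI and 0.223 ± 0.119 CPM in KO naive, 0.768 ± 0.213 CPM in WT SNI and 0.326 ± 0.186 CPM in WT naive libraries. It holds 2.7% of the 50-base stretches of Serpina3n, 3.3% for Serpina3h, 4.1% for Serpina3f, 4.2% for Serpina3i and 4.7% for Serpina3g. The split of reads with these members is therefore uncertain for it too. It was called higher after SNI in both genotypes in DRG (0.96 ± 0.16 in KO, 0.71 ± 0.17 in WT) and in KO cord (2.08 ± 0.37). In WT cord it was not called (1.23 ± 0.36, adjusted p = 0.068). Serpina3c averaged 5.07 ± 0.293 CPM in KO SNI and 4.35 ± 0.518 CPM in KO naive DRG, and 4.05 ± 0.428 CPM in WT SNI and 3.28 ± 0.432 CPM in WT naive DRG. It was not called with injury in any group. Between genotypes, Serpina3c was called higher in KO naive DRG (0.41 ± 0.11, against 28.2% of all genes called) and Serpina3e-ps in KO SNI DRG (0.65 ± 0.17, against 5.1%). The Serpina3c call was lost with the blood covariate, and the Serpina3e-ps call when only the SNI DRG libraries were fitted. Serpina3k, a serpin of liver and plasma, had 2.11 CPM in WT SNI DRG library E1 and at most 0.131 CPM in the other WT SNI DRG libraries. Liver markers summed to 24.2 CPM in E1 and at most 2.15 CPM in those others. Serpina3m, whose annotated start is that of Serpina3k, was highest in E1 within its group. Without E1 its log2 fold change was 0.46 for injury in WT DRG, in place of 0.62, and 1.54 for KO against WT after SNI, in place of 1.38, and neither changed its side of the threshold.

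Of 14 tested serpins outside the Serpina3 genes, 5 were called higher and 1 lower in WT SNI DRG (24.9% of all genes were called; median log2 fold change 0.12, against -0.01 over all genes). Serpinb1a, an inhibitor of neutrophil proteases, had 366 ± 19.1 CPM in WT SNI against 104 ± 7.39 CPM in WT naive DRG (1.81 ± 0.07). Serpinb2 differed by 3.33 ± 0.50. In WT cord 1 of 14 was called, Serpinb2, at 2.57 ± 0.54. Of the neighbouring clade A serpins, 6 were tested in DRG and 1 was called higher.

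Proteases of the kinds that serpins are known to inhibit were counted in 2 lists, and the difference between the lists was not tested. Of 8 tested granule serine proteases, which include elastase and cathepsin G, none was called with injury in WT DRG (24.9% of all genes were; median log2 fold change -0.02). Of 7 cysteine cathepsins, 5 were called higher and none lower in WT SNI DRG (median 0.42). Ctss, a cathepsin of macrophages and microglia, had 77.9 ± 16.1 CPM in WT SNI against 24.7 ± 9.01 CPM in WT naive DRG (1.65 ± 0.23). In WT cord 4 of 7 were called higher (2.88% of all genes were called), with Ctss at 203 ± 16.4 CPM in WT SNI against 75.5 ± 4.33 CPM in WT naive cord (1.43 ± 0.06). Macrophage markers moved alongside, summing to 492 to 976 CPM in WT SNI and 217 to 424 CPM in WT naive DRG, and their part in the cathepsin values was not tested.

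Signalling genes known to lie upstream of acute-phase serpins were given by lists, to be read against 24.9% of all genes called in WT DRG and 2.88% in WT cord. These shares count both directions: 2465 genes higher and 2399 lower in WT DRG, 492 higher and 51 lower in WT cord. Of 17 tested genes of the IL-6 family and STAT3 pathway, 8 were called higher and none lower in WT SNI DRG (median 0.28), and 3 higher in WT SNI cord (median 0.15). In DRG the cytokine genes Clcf1 (1.61 ± 0.16) and Il6 (1.996 ± 0.215) and the STAT3 target Pim1 (0.65 ± 0.08) had the lowest adjusted p. In WT cord these were the receptor gene Il6ra (0.92 ± 0.10), Stat3 (0.24 ± 0.04) and the feedback inhibitor Socs3 (0.93 ± 0.20). Stat3 had 96.3 ± 2.61 CPM in KO SNI and 70.7 ± 2.35 CPM in KO naive cord, and 84.5 ± 2.76 CPM in WT SNI and 71.3 ± 3.21 CPM in WT naive cord, and was called higher in KO than in WT among SNI cords (0.19 ± 0.04). Of 11 genes of the IL-1, TNF and NF-kappa B pathway, 7 were called higher in WT SNI DRG, led by the receptor Il1r1 (1.37 ± 0.07). In WT SNI cord 1 of 10 was, Il1a (1.44 ± 0.26). The interferon gamma pathway had 2 of 10 called higher in WT DRG and 3 of 9 in WT cord.

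Acute-phase and reactive astrocyte genes showed calls in both tissues, where 24.9% of all genes were called in WT DRG and 2.88% in WT cord, higher or lower. Of 14 tested acute-phase genes, 5 were called higher after SNI in WT DRG (median 0.36), led by Cd14 (1.203 ± 0.181), Saa1 (2.02 ± 0.33) and C3 (1.53 ± 0.27), and of 10 tested in WT cord 1 was, Cd14 (0.61 ± 0.11). Of 12 reactive astrocyte genes, 7 were called higher in WT SNI DRG (median 0.62) and 5 in WT SNI cord (median 0.62). Gfap, the astrocyte intermediate filament, had 1758 ± 81.8 CPM in WT SNI against 1056 ± 129 CPM in WT naive cord (0.74 ± 0.07). Microglia markers summed to 407 to 437 CPM in WT SNI and 219.6 to 247 CPM in WT naive cord, and their part in these values was not tested.

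Glucocorticoid response genes were higher in naive KO DRG, as were 4 members. Of 7 tested, 6 were called higher and none lower (28.2% of all genes were called; median 0.67, against -0.02 over all genes). Sgk1, a kinase induced by glucocorticoids, had 37.5 ± 6.42 CPM in KO naive against 23.5 ± 1.95 CPM in WT naive DRG (0.67 ± 0.13), Fkbp5 0.73 ± 0.14 and Pdk4 0.60 ± 0.14 on the log2 scale. These 3 calls were lost with the blood covariate, as were those of Serpina3n and Serpina3h, while Serpina3i and Serpina3m kept theirs. In naive DRG the covariate goes with genotype, so the lost calls cannot tell blood from genotype. In naive cord, where no member was called, 3 of 7 were called higher (19.7% of all genes were called), and Sgk1 had 115.8 ± 54.0 CPM in KO naive against 42.1 ± 6.68 CPM in WT naive cord, a call also lost with the blood covariate (adjusted p = 0.145). Between KO and WT among SNI libraries none of the 7 was called in either tissue (median 0.36 in DRG and 0.27 in cord). Of all genes, 5.1% were called there in DRG and 6.26% in cord. The members called there were 4 in DRG and 3 in cord, and a link between these genes and the Serpina3 values was not tested.

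The genes most like Serpina3n were found by the Pearson r of log2(CPM + 1) among genes whose log2 CPM averaged 1 or more. Over 18 DRG libraries these were G6pdx (0.98), Rasgrf2 (0.98), Slc6a19 (0.98), Galnt6 (0.97) and Clmp (0.97), out of 14729 genes. Serpina3i ranked 19 and Serpina3h 20. Over 18 cord libraries, out of 14386 genes, they were Ctla2a (0.98), Gal (0.98), Hpgds (0.98) and Atf3 (0.97), with a gene that has only a clone-based name also among them, and Serpina3h at 0.97. By deviations from group means, which leave the groups out, they were Ptpn1 (0.88), Wnk2 (0.87), Sdk2 (0.87), Capn15 (0.85) and Clmp (0.85) in DRG, and Pdcl3 (0.87), Csf1 (0.86), Srpx2 (0.86), Tubb6 (0.84) and Smc4 (0.83) in cord. Clmp was named by both measures in DRG. All these libraries share tissue and depth, and the values over libraries also share the group differences.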

How the data were processed

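Poly(A) RNA of 36 libraries was prepared with a stranded TruSeq kit, per the labels' protocols; FastQC 0.11.5, HISAT2, RSEM and build GRCm38 are named in the submitters' processing notes. The authors deposited expected counts per gene, rounded here to whole numbers. One deposited column, that of library E1, has the unit other in the record of files, since 9150 of its cells had decimal commas; these were read as points and 1 lost cell was restored from the normalised table. The normalised signal values deposited by the authors served that repair and an alternative test.

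Each tissue was fitted alone (18 libraries, 4 groups, 14 residual degrees of freedom) with edgeR 4.0.16 in R 4.3.3: TMM factors, filterByExpr (19496 genes in DRG, 18843 in cord), robust quasi-likelihood F tests, Benjamini-Hochberg over all genes. Tissue contrasts used 1 joint fit (20626 genes). SE is the log2 fold change over the square root of F. In all 13 comparisons were made. The fit was tested on simulated data. Sequence stretches and promoters came from GENCODE M21 and RefSeq tables. Proteins are not shown here.

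The members and lists were chosen with earlier results of these data known. Named were all members, up to 3 called genes of lowest adjusted p per list and the 5 genes most like Serpina3n per tissue and measure; Serpina3c, Serpina3e-ps, Serpina3k and Stat3 by genotype were added after their values were seen. DESeq2 1.42.0, limma 3.58.1, size factors, no filter, single groups, left-out libraries and 2 covariates were alternatives. The gene deleted in KO mice, and 1 gene of the serpin list, are not reported here.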

Additional observations from a re-analysis of the deposited data

Results flagged for a closer look

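Of 48 groups of 4 or 5 libraries examined over the 6 genes, 1 held a library far from the rest, where chance gives about 1 in 20. Serpina3g had 83.6 CPM in library C2 of naive KO DRG, against 66.2 to 71.1 CPM in the other KO naive DRG libraries.

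The injury response differed between DRG and cord by the test of that difference. In WT mice the DRG response minus the cord response was -1.62 (Serpina3h) and -1.56 (Serpina3i) on the log2 scale. In KO mice the values were -0.29 for Serpina3n, -1.83 for Serpina3h, -1.21 for Serpina3g, -2.61 for Serpina3f and -1.62 for Serpina3i. The response of Serpina3g was -0.51 ± 0.09 in KO DRG and 0.66 ± 0.35 in KO cord, where it was not called.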

How the results depend on the processing

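Over 46 alternatives, 1204 values of the 40 called member results were recomputed: 1142 kept their call, 62 lost it and 0 changed direction. Of these alternatives, 36 left out 1 library, often one outside the groups compared, and no result was refitted under all 46. Fitting only the compared groups gave 3216 genes for injury in WT DRG, 649 for genotype in SNI DRG, 1 member for genotype in naive cord and 1 in SNI cord. Without the 2 libraries of conflicting labels, genotype in naive DRG gave 2626 genes and the DRG interaction 2, with Serpina3f at -0.0442 in the first and Serpina3i at -1.99e-05 in the second. DESeq2 gave 24 genes for the DRG interaction. Without the filter no member was called for genotype in SNI cord (0).

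The blood covariate, added after the data were seen, left 532 genes and 2 members for genotype in naive DRG. It left 653 genes in naive cord and 1 gene in the DRG interaction. The blood sums of KO and WT naive DRG did not overlap, so a lost call there cannot tell blood from genotype. The covariate also turned Serpina3n in naive cord to -0.0370. In the DRG interaction it turned Serpina3f to -0.11, Serpina3m to -0.00258 and Serpina3n to 0.0801. The 6 genes summed had a DRG interaction of 0.0333, against -0.01 for Serpina3n. The response of Serpina3n in WT DRG against cord was 0.0174 with RLE size factors or DESeq2 and 0.0299 without the filter. None of these reversed values was called, and the cause was not tested.

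A replicate block by the number in the column names gave 0 genes in the DRG interaction (Serpina3g 0.00225) and 1 member for genotype in naive cord. With KO and WT paired by number, 1 of 5 naive and 2 of 4 SNI pairs had correlated deviations over 0.1 in either tissue. In SNI DRG the r of these pairs ran from -0.0851 to 0.406. Pairs of unlike number were not compared, so whether the numbers pair KO with WT was not settled. DRG and cord libraries of the same number and genotype deviated together more often (r 0.0230 to 0.364, 14 of 18 over 0.1), and the fit with that number and genotype as a block called 6 members between the tissues, and 2 in WT and 5 in KO for the tissue difference of the injury response, as without it.

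Leaving out single libraries gave 3032 to 6638 genes for genotype in naive DRG, 615 to 1703 in SNI DRG and 1 to 7 in the DRG interaction. Members called ran from 0 to 1 for genotype in naive cord, 0 to 3 in SNI cord and 3 to 5 for the KO tissue difference of the injury response. Uncalled members that changed sign were, for genotype in naive DRG, Serpina3f (-0.0247 to 0.11) and Serpina3g (-0.0151 to 0.0853), and in SNI DRG Serpina3f (-0.0239 to 0.16) and Serpina3g (-0.0120 to 0.0894). In the DRG interaction these were Serpina3f (-0.0618 to 0.12), Serpina3g (-0.0693 to 0.0634), Serpina3h (-0.0681 to 0.0758), Serpina3i (-0.0283 to 0.0681) and Serpina3n (-0.0718 to 0.0158). In cord they were Serpina3g (-0.0873 to 0.24) and Serpina3m (-0.13 to 0.78) for injury in WT, Serpina3g (-0.0395 to 0.32) for genotype after SNI, and Serpina3h (-0.00349 to 0.51) and Serpina3i (-0.13 to 0.33) for the interaction. In the WT tissue difference they were Serpina3m (-0.14 to 0.77) and Serpina3n (-0.0377 to 0.0524). Serpina3f was too low in cord to be tested there.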
